A study of Homo sapiens with 12 samples.

Results

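CXCL5, CXCL10, CCL20 and UBD are 4 inflammatory transcripts, measured by 4 of the 53617 probe sets on each of 12 arrays of HuH-7 cells. They were selected on these same values, because they differed between the control oligonucleotides or between the miR1908-5p mimic and its control. Those 2 comparisons are therefore described for them without a test, and tests are given only for the inhibitor and for the culture occasions. The inhibitor test is not fully separate from the choice, since its control arrays also served in the comparison of the controls. CXCL5 was read from probe set 16976827, CXCL10 from 16977052, CCL20 from 16891774 and UBD from 17016692, the single probe set found for each gene. The platform annotation names 3 of them, while the UBD probe set has its symbol only from a supplementary table of the study.

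HuH-7 is a cell line from a human hepatocellular carcinoma that is widely used in place of hepatocytes. Cells grown in low glucose medium with serum received an oligonucleotide by lipid transfection, at 9 nM by the labels, and were collected after 72 h; the study's methods state a different concentration. The 4 groups received a miR1908-5p mimic, which adds the microRNA, a hairpin inhibitor, which binds it, or the matching mimic control or inhibitor control, both of which carried the dye Dy547. Each group has 3 arrays, and the experiment was run on 3 distinct occasions with every group present on each. All cells were of 1 line and all had been transfected, so no array shows these genes without an oligonucleotide. The deposited values are normalized log2 values per probe set, on which a difference of 1 is a 2-fold change in signal. Levels are compared only within a probe set, because the brightness of different probe sets depends on their probes.

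Chemokines are small secreted proteins that draw leukocytes along a gradient through G protein-coupled receptors. CXCL5 attracts neutrophils through CXCR2, CXCL10 is an interferon-inducible ligand of CXCR3 on activated T cells, and CCL20 is the ligand of CCR6 and was first described in liver. UBD encodes FAT10, a ubiquitin-like protein with a pair of ubiquitin folds that is joined to other proteins and leads them to the proteasome. Its gene lies in the major histocompatibility complex and responds to interferon gamma and tumour necrosis factor. The transcription factor NF-kB acts on the promoters of all of these chemokines, and in hepatocytes it is switched on by interleukin 1 and tumour necrosis factor.

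The microRNA whose mimic and inhibitor were used, hsa-miR-1908-5p, is shown first so that its seed can be read. It is encoded at chr11:61815209-61815229 on the minus strand of GRCh38.p14, inside FADS1, and its sequence is credited to RefSeq. Capitals mark the seed, bases 2 to 8.

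hsa-miR-1908-5p: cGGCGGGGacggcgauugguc

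The 4 promoters are shown because NF-kB is the regulator that the members have in common in the textbook account. The 250 bases before each start site are given 5′ to 3′ on the strand of the gene, from RefSeq on GRCh38.p14, and capitals mark every match to the NF-kB site consensus (kB). CXCL5 (chr4:73995642-73998677) and CXCL10 (chr4:76021118-76023497) lie on chromosome 4, CCL20 (chr2:227813842-227817556) on chromosome 2 and UBD (chr6:29555515-29559732) on chromosome 6.
CXCL5, chr4:73998678-73998927, minus strand: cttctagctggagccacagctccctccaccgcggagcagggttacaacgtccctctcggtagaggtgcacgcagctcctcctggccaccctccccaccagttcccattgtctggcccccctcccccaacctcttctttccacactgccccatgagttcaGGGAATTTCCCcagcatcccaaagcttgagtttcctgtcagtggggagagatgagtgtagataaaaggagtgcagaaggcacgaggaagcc
CXCL10, chr4:76023498-76023747, minus strand: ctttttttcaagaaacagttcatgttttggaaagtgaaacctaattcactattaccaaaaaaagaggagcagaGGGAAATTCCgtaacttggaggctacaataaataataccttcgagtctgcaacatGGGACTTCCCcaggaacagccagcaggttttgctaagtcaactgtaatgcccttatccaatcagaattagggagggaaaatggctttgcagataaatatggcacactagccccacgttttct
CCL20, chr2:227813592-227813841, plus strand: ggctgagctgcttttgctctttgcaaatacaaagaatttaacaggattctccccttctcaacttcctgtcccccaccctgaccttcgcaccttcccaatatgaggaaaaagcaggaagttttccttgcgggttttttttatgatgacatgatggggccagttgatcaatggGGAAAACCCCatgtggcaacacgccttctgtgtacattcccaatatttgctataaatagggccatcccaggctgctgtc
UBD, chr6:29559733-29559982, minus strand: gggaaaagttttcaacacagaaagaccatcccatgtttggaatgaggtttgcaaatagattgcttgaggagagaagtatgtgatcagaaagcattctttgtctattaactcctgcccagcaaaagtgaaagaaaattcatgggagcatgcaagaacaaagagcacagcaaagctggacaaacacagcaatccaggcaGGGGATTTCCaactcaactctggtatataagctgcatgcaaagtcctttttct

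A kB consensus was found on either strand in all 4 windows and in 9.96% of the 35116 promoter windows of the same length. In CXCL5 a pair of overlapping matches lay at -91 to -82 and -90 to -81 from the start site. CXCL10 had matches at -177 to -168 and -122 to -113, CCL20 had 1 at -79 to -70 on the opposite strand, and UBD had 1 at -53 to -44. The core of the interferon-stimulated response element, GAAANNGAA, was found only in CXCL10, at -221 to -213, against 6.88% of all windows, and did not overlap a kB match. The letters TATAAA were found only in CCL20, at -29 to -24, against 10.7% of windows, and the AP-1 letters TGANTCA were found in none of the 4, against 6.57% of windows. These matches describe letters and do not show binding.

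The 13 hepatocyte markers named on the array, among them ALB and APOA1, were all among the brightest 25% of probe sets on every array, as the cell line's label has it. Of 14 named markers of macrophages, endothelium, stellate cells and bile duct, 4 (LYZ, SOX9, EPCAM and CD68) were among the brightest 25% and 6 under the median throughout. The MIR1908 probe set read between 6.91 and 6.99 on average in the 4 groups, but it reports the hairpin's gene and so checks neither the mimic nor the inhibitor. The adjusted p was 1.0 with the mimic for MIR1908 and for its host gene FADS1, a fatty acid desaturase.

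CXCL5 was high in the cells given either inhibitor oligonucleotide and low in those given the mimic control. On occasions 1, 2 and 3 the inhibitor control read 10.09, 9.85 and 10.47, and the inhibitor read 10.15, 10.29 and 10.48. The mimic control read 8.56, 8.22 and 8.22, and the mimic read 8.88, 9.34 and 9.41. The 6 arrays of the mimic arms thus all lay under the 6 arrays of the inhibitor arms, with the mimic between its own control and the rest. By group mean the order was inhibitor (10.31 ± 0.16, SD, n = 3), inhibitor control (10.14 ± 0.32), mimic (9.21 ± 0.29) and mimic control (8.33 ± 0.19), and only the first pair of neighbours overlapped.

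CXCL10 was high on 2 arrays, both of the mimic control. The mimic control read 8.13, 6.65 and 5.10 on occasions 1, 2 and 3, a range wider than that of all other arrays together. The mimic read 6.05, 5.53 and 5.15, the inhibitor 6.21, 5.41 and 5.53, and the inhibitor control 5.51, 5.03 and 5.14. The highest value of every group came from occasion 1, and on occasion 3 no other array read lower than that of the mimic control. The group means were 6.62 ± 1.52 (SD, n = 3) for the mimic control, 5.72 ± 0.43 for the inhibitor, 5.58 ± 0.45 for the mimic and 5.22 ± 0.25 for the inhibitor control, and all neighbours in this order overlapped.

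CCL20 gave a bright signal throughout and moved mainly with the occasion. The inhibitor read 12.29, 12.48 and 11.63 on occasions 1, 2 and 3, the inhibitor control 12.28, 12.29 and 11.37, and the mimic control 12.02, 12.35 and 11.40. The mimic read 11.14, 12.16 and 10.81, the lowest of the 4 groups on each occasion. Occasion 3 was the lowest in every group. The means were 12.13 ± 0.45 (SD, n = 3) for the inhibitor, 11.98 ± 0.53 for the inhibitor control, 11.92 ± 0.48 for the mimic control and 11.37 ± 0.71 for the mimic, and all neighbours overlapped.

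UBD was highest with the mimic control on every occasion. The mimic control read 6.15, 5.15 and 5.06, the inhibitor 3.66, 4.55 and 4.62, the mimic 4.86, 3.18 and 3.43, and the inhibitor control 3.89, 3.06 and 4.47 on occasions 1, 2 and 3. The means were 5.45 ± 0.60 (SD, n = 3), 4.28 ± 0.53, 3.82 ± 0.90 and 3.81 ± 0.71 in that order. The mimic control arrays did not overlap with those of the next group, while the other 3 groups overlapped. The UBD probe set was dim: its mean over the 12 arrays was 4.34, under the median of 5.03 for all probe sets, and the files hold no detection call.

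**Figure D1:**
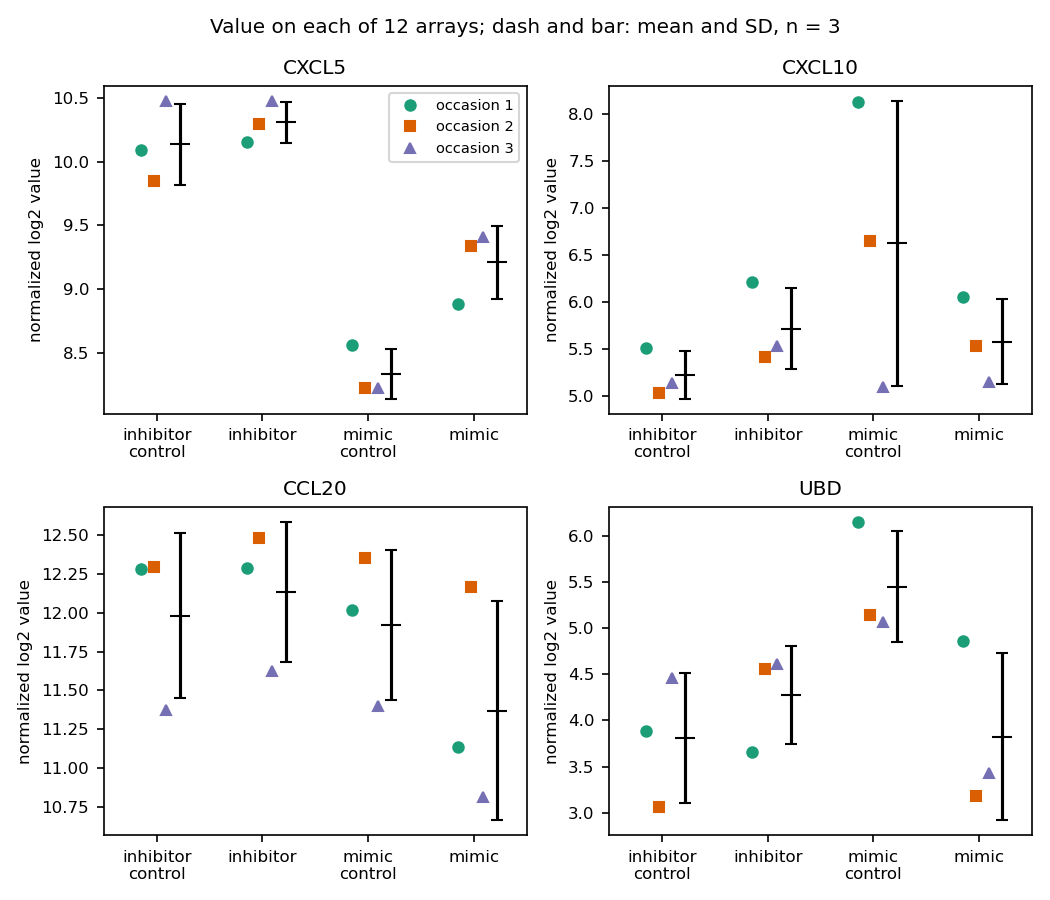
Normalized log2 value (y axis) of each of the 4 genes on the 12 arrays by group (x axis), with occasions as symbols and the mean and SD of 3 arrays as a dash and bar; each panel has its own scale. CXCL5 and UBD separate the mimic control from the other groups, the CXCL10 mimic control arrays run from 5.10 to 8.13, and CCL20 is lowest on occasion 3 in every group.

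The mimic was compared with its control to ask which transcripts respond to added miR1908-5p. CXCL5 was 0.88 higher on the log2 scale with the mimic (SE 0.20), a fold of 1.84, and the 2 groups did not overlap. UBD was lower by 3.09-fold (log2 difference -1.63, SE 0.49), again with no overlap. CXCL10 (-1.05, SE 0.57) and CCL20 (-0.55, SE 0.39) were lower by 2.07-fold and 1.47-fold on average, with overlap. The 2 members whose groups did not overlap stand beside 8.86% of all probe sets without overlap, 4.61% past an unadjusted p of 0.05 and 0.0149% past an adjusted p of 0.05, but nothing can be read from this since the comparison chose the members. In these bulk samples fewer cells making a transcript and less transcript in each cell cannot be told apart.

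Within occasions, CXCL5 was higher with the mimic by 0.32, 1.12 and 1.19 on occasions 1, 2 and 3, so the smallest of the 3 differences was on the first. UBD was lower each time, at -1.29, -1.96 and -1.63. CCL20 was also lower each time, at -0.88, -0.19 and -0.59. CXCL10 was lower on 2 of 3 occasions, at -2.07 and -1.11, and 0.050 higher on occasion 3. Its mean difference rested on the occasion 1 array of the mimic control: without that array it was -0.29, without the occasion 3 array of the mimic control -1.81, and without all occasion 1 arrays -0.53. The CCL20 mean difference ran from -0.27 without the occasion 3 mimic array to -0.95 without the occasion 2 mimic array. Over the same comparison 11 of the 13 hepatocyte markers were higher with the mimic, with a median of 0.22 against -0.0025 for all probe sets and none past the adjusted threshold. The part of these markers in the members' values was not tested.

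The 2 control oligonucleotides were compared because each serves as the baseline of 1 arm. CXCL5 was 3.48-fold lower with the mimic control than with the inhibitor control (log2 difference -1.80, SE 0.20) and UBD was 3.13-fold higher (1.65, SE 0.49), both without overlap. CXCL10 was 2.64-fold higher on average (1.40, SE 0.57), with overlap, and CCL20 differed by -0.058 (SE 0.39). Of all probe sets 10.5% did not overlap between the controls, 5.28% passed an unadjusted p of 0.05 and 0.00373% passed the adjusted threshold, and this comparison too chose the members. Both comparisons use the mimic control arrays, so a high or low value there enters both with opposite sign.

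Within occasions the controls differed in CXCL5 by -1.53, -1.62 and -2.25, and in UBD by 2.26, 2.08 and 0.60. Both genes thus kept 1 direction, with UBD nearest to level on occasion 3. CXCL10 differed by 2.62 and 1.62 on occasions 1 and 2 and by -0.040 on occasion 3, and without the occasion 1 array of the mimic control the mean difference was 0.65, and without its occasion 3 array 2.16. CCL20 differed by -0.26, 0.062 and 0.029, so it was lower with the mimic control on occasion 1 only. The sign of its mean turned without all occasion 1 arrays. It also turned without the inhibitor control array of occasion 1 or 2 or the mimic control array of occasion 3. Quantile normalization again and array weights turned it too.

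**Figure D2:**
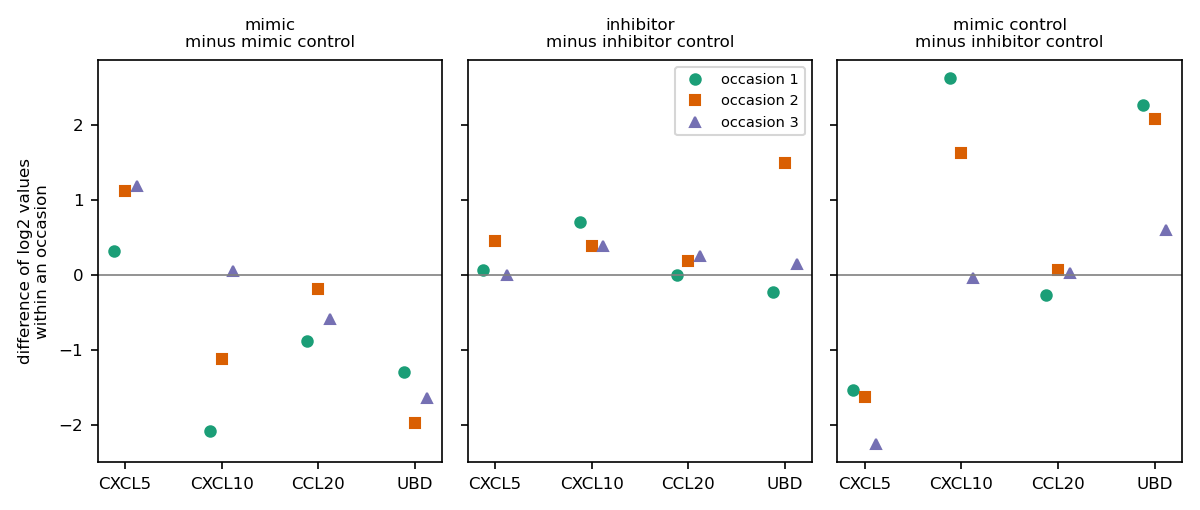
Difference of log2 values within an occasion (y axis) for each gene (x axis) in 3 comparisons, with 1 symbol per occasion and no error bars because each point is a pair of arrays. With the mimic CXCL5 lies above 0 and CCL20 and UBD below 0 on all 3 occasions, while between the controls CXCL5 lies below 0 and UBD above 0 on all 3, and CXCL10 lies near 0 only on occasion 3.

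The inhibitor was compared with its control to ask whether blocking miR1908-5p moves transcripts the other way. None of the 4 members passed the test, all with an adjusted p of 1.0, where 0.00187% of probe sets (1 of 53617) passed it, 2.92% passed an unadjusted p of 0.05 and 8.0% did not overlap. The log2 difference was 0.17 for CXCL5 (95% confidence interval -0.27 to 0.61), 0.49 for CXCL10 (-0.76 to 1.75), 0.15 for CCL20 (-0.70 to 1.00) and 0.47 for UBD (-0.60 to 1.54). The groups overlapped for all 4 genes, and none passed an unadjusted p of 0.05. The intervals come from the model without the occasion, which held 62.0% of the variation of CCL20 and 37.0% of that of CXCL10. For CXCL10, CCL20 and UBD they reach 1 log2 unit or more, so in this model a rise of that size is not excluded. For CXCL5 the interval ends at 0.61. Intervals with the occasion as a term are not given here. Over the alternatives the difference ran from 0.028 (without the inhibitor control array of occasion 2) to 0.34 (without that of occasion 3) for CXCL5, and from 0.24 (without the inhibitor array of occasion 1) to 0.64 for CXCL10.

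Within occasions the inhibitor minus its control gave 0.064, 0.45 and 0.0043 for CXCL5 and 0.70, 0.39 and 0.39 for CXCL10. CXCL10 was therefore higher each time, although the groups overlapped. CCL20 gave 0.0069, 0.19 and 0.25, and UBD gave -0.23, 1.49 and 0.15. The UBD mean came largely from occasion 2, and without the arrays of that occasion it was -0.038.

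The occasions were compared by an F test over all 3, with the group as a term and 4 arrays each. Every adjusted p given for occasions is from this test, and a difference beside it is occasion 3 minus occasion 1. CCL20 differed between occasions with an adjusted p of 0.0161. Its means were 11.93 ± 0.54 (SD, n = 4), 12.32 ± 0.13 and 11.30 ± 0.35 on occasions 1, 2 and 3. Occasion 3 was 0.63 below occasion 1 (SE 0.15, 95% confidence interval -0.97 to -0.28), and was lower in 4 of 4 groups. This was a common pattern on these arrays: 4.97% of all probe sets passed the adjusted threshold between occasions and 22.7% an unadjusted p of 0.05. The call was lost on leaving out the occasion 3 array of the inhibitor control (adjusted p = 0.0564), the mimic (0.0586) or the mimic control (0.0609).

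CXCL10 had means of 6.48 ± 1.14 (SD, n = 4), 5.66 ± 0.70 and 5.23 ± 0.20 on occasions 1, 2 and 3, but did not pass the adjusted threshold (adjusted p = 0.138), with a difference of -1.25 between occasions 3 and 1 (SE 0.36). Without the occasion 1 array of the mimic control that difference was -0.84. CXCL5 (0.22, SE 0.16, adjusted p = 0.56) and UBD (-0.25, SE 0.41, adjusted p = 0.55) did not pass. The 4 genes therefore divided their variation in different ways. Over all probe sets the median share was 24.2% for the groups and 25.0% for the occasions. The groups held 93.8% of the sum of squares of CXCL5 and 57.8% of that of UBD. Occasions held 62.0% for CCL20 and 37.0% for CXCL10. Because the members were selected on differences between groups, these shares are a description: a high group share was favoured by that choice and leaves less for the occasions.

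**Figure D3:**
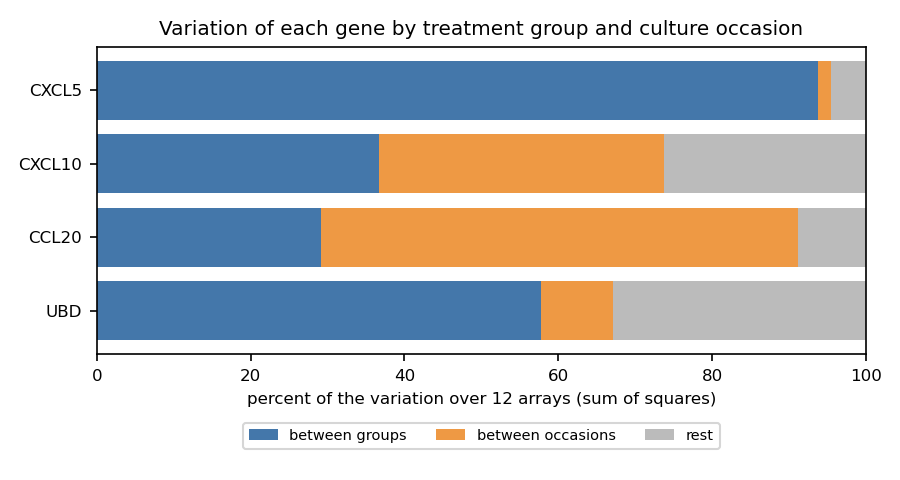
Percent of the sum of squares over the 12 arrays (x axis) that lies between groups, between occasions and in the rest, for each of the 4 genes (y axis). CXCL5 varies almost only between groups (93.8%), CCL20 mainly between occasions (62.0%), and CXCL10 nearly equally between both (36.7% and 37.0%). Over all probe sets the medians were 24.2% between groups and 25.0% between occasions. The members were selected on group differences.

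Some markers of other cell types also differed between occasions. The summed linear signal of the 14 named markers ran from 3083 to 4312 on occasion 1, from 4071 to 4658 on occasion 2 and from 2497 to 3222 on occasion 3. A linear sum weighs the brightest markers most, so it does not stand for the 14 as a set. By gene, 8 of the 14 were higher and 6 lower on occasion 3 than on occasion 1, with a median of 0.08 against 0.05 for all probe sets. At the adjusted threshold 4.97% of all probe sets passed the F test over the 3 occasions. Of the 14 markers CD68 (-0.72, adjusted p = 0.0164), EPCAM (-0.83, adjusted p = 0.0111) and SOX9 (-0.51, adjusted p = 0.0275) passed it. All were lower on occasion 3 than on occasion 1. LYZ, which encodes lysozyme and is the brightest of them, ran from 10.27 to 11.33 over the arrays and did not pass between occasions (adjusted p = 0.0677). The other 10 ran from 2.53 at the lowest (DCN) to 7.04 at the highest (KRT19), with CD14 between 4.22 and 5.06, CSF1R between 4.19 and 5.50 and PECAM1 between 5.70 and 6.82. Of the 13 hepatocyte markers APOA1 (-0.66, adjusted p = 0.0264) and TTR (-0.52, adjusted p = 0.0398) passed too, and were also lower on occasion 3. Each of these 5 genes lost the call in at least 1 alternative. None of the 13 or 14 markers passed the adjusted test with the mimic, with the inhibitor or between the controls. The part of these genes in the CCL20 values was not tested.

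Across the 12 arrays CXCL10 and UBD ran together most closely of the 6 pairs of members, with a Pearson r of 0.668, of 0.753 after the mean of each occasion was subtracted and of 0.426 after the mean of each group was subtracted. These points share groups and occasions, and the members were selected on differences between these groups, which enter r, so r is a description. CXCL5 ran against UBD (r = -0.498) and CXCL10 (-0.458), and these signs were turned after group means were subtracted (0.228 and 0.103). CCL20 had an r of 0.147 with CXCL5, 0.255 with CXCL10 and -0.080 with UBD. After occasion means were subtracted these were 0.392, 0.072 and 0.073, and after group means were subtracted -0.298, 0.325 and -0.380.

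**Figure D4:**
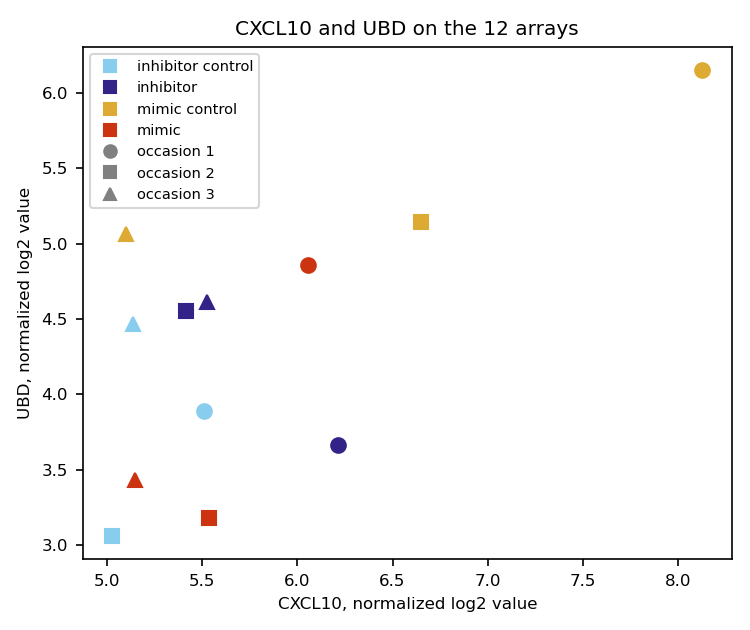
Normalized log2 values of CXCL10 (x axis) and UBD (y axis) on the 12 arrays, with groups as colours and occasions as symbols. The mimic control array of occasion 1 is highest for both genes (8.13 and 6.15), and the mimic control array of occasion 3 is high for UBD (5.06) and low for CXCL10 (5.10).

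Among 10344 named probe sets brighter than the median, the pattern of CCL20 over the 12 arrays was most like that of GGCT (r = 0.985), LIN54 (0.983), LYZ (0.971), CCDC86 (0.971) and COMMD8 (0.960). LIN54, LYZ and GGCT were also among its 5 closest after occasion means were subtracted. CXCL5 was most like USP19 (0.923), GID8 (0.921), LETMD1 (0.918), DDX19A (0.905) and TSN (0.905). CXCL10 was most like AREL1 (0.922), DSEL (0.920), DHDDS (0.917), OSBP2 (0.911) and TM9SF4 (0.905). UBD was most like PDGFC (0.913), REEP5 (0.881), YOD1 (0.873), CEP43 (0.870) and SNX13 (0.851). Of these 20 genes 1, LYZ, is in any of the gene lists read here, and none is a chemokine. After occasion means were subtracted only DDX19A, OSBP2 and PDGFC stayed among the 5 closest to CXCL5, CXCL10 and UBD, respectively. All are the highest r of a search through 10344 probe sets over 12 arrays that share groups and occasions, so these r are a description.

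Other chemokine ligands were read from lists set down for this purpose. With the mimic none of the 14 other named CXC ligands and none of 21 CC and CX3C ligands passed the adjusted test. Their median log2 differences were -0.08 (5 higher, 9 lower) and -0.03 (8 higher, 13 lower), against -0.0025 for all probe sets. An unadjusted p of 0.05 was passed by CXCL13, a chemokine of B cell follicles, at 0.58 (SE 0.25, adjusted p = 1.0), and by CX3CL1, the membrane-bound ligand of CX3CR1, at -0.61 (SE 0.18, adjusted p = 0.838). The CXCL13 difference was 0.30 without occasion 2 and 0.96 without occasion 1. Its probe set was dim, at 2.81 with the mimic control and 3.39 with the mimic, under the median of 5.03 for all probe sets. CX3CL1 averaged 8.42 ± 0.24 (SD, n = 3) with the mimic control and 7.81 ± 0.08 with the mimic. CXCL9 and CXCL11, which share CXCR3 with CXCL10, differed by 0.04 (SE 0.28) and -0.21 (SE 0.37), and their group means also lay under that median.

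Between the controls too, none of the 14 CXC or 21 CC and CX3C ligands passed either threshold, with medians of 0.13 and 0.02. CXCL6, the closest relative of CXCL5 and a neighbour on chromosome 4, differed by 0.74 (SE 0.40, adjusted p = 0.976), where CXCL5 had -1.80. This value rested on single arrays, at 0.42 without the mimic control array of occasion 1 and 1.16 without that of occasion 3. With the inhibitor the medians were 0.0005 and -0.04, none passed the adjusted test, and CCL3 alone passed an unadjusted p of 0.05, at -0.39 (SE 0.17, adjusted p = 1.0), which ran from -0.21 without occasion 2 to -0.64 without occasion 1.

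**Figure D5:**
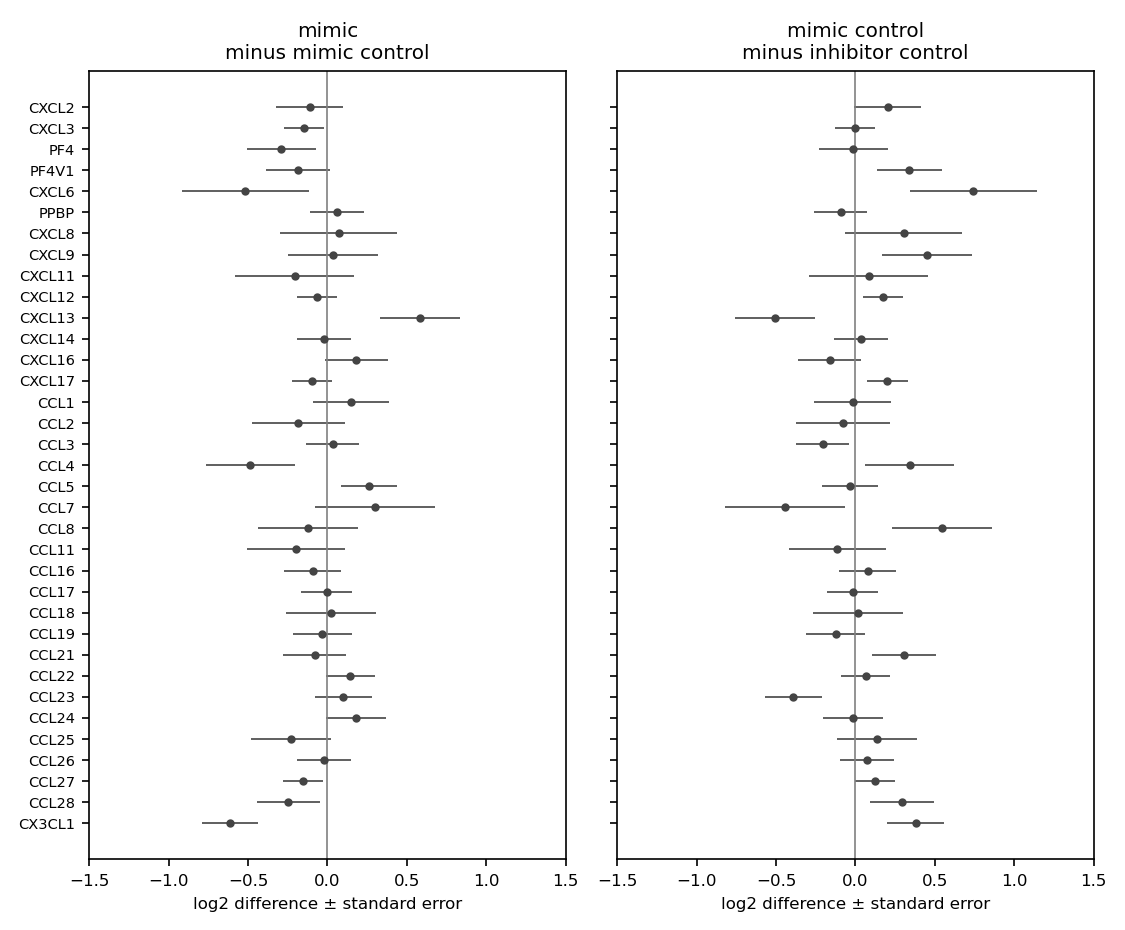
Log2 difference and its standard error (x axis) for the 35 other named chemokine ligands (y axis), with the mimic against its control on the left and between the controls on the right. The values run from -0.61 (CX3CL1) to 0.58 (CXCL13) with the mimic and from -0.51 (CXCL13) to 0.74 (CXCL6) between the controls, and none passed the adjusted test. The group means of CXCL13 and CXCL6 lay under the median of 5.03 for all probe sets.

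Between occasions 2 of the 14 CXC ligands passed the adjusted threshold, both lower on occasion 3, where 4.97% of all probe sets passed. CXCL6 fell from 5.07 ± 0.42 (SD, n = 4) to 4.07 ± 0.10 (adjusted p = 0.0338) and CXCL8, the neutrophil attractant interleukin 8, from 5.75 ± 0.34 to 4.84 ± 0.42 (adjusted p = 0.0477). Of 18 named chemokine receptors CCR6, the receptor of CCL20, had means of 6.14, 6.68 and 5.46 on occasions 1, 2 and 3 (adjusted p = 0.00752). This order was that of CCL20, but also that of CD68, SOX9, APOA1, IER3, SOCS1 and MAD2L1, so it was not particular to CCR6. ACKR3, a scavenging receptor, was lower by 0.66 on occasion 3 than on occasion 1 (adjusted p = 0.036). None of the 21 CC and CX3C ligands passed. These genes, and the others named for the occasions, were chosen after their values were seen. CCR6 kept its call in all alternatives. CXCL8 lost it whichever of the 12 arrays was left out, ACKR3 without any array but the mimic control array of occasion 2, and CXCL6 without any of 8 arrays.

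None of the 18 named chemokine receptors, 11 inflammatory receptors, 12 NF-kB subunits and regulators, 14 NF-kB target genes, 22 interferon-inducible genes or 12 partners of FAT10 passed the adjusted test with the mimic, with the inhibitor or between the controls. With the mimic the medians were -0.04, -0.09, -0.18, -0.02, -0.06 and -0.02 in that order. The NF-kB regulators had the lowest of these medians, with 9 of 12 lower. Among them were BCL3 at -0.54 (SE 0.21, adjusted p = 0.988) and TNIP1, which restrains the pathway, at -0.39 (SE 0.15, adjusted p = 1.0). Without occasion 3 the BCL3 difference was -0.25. Among the NF-kB targets the adhesion molecule ICAM1 differed by -0.61 (SE 0.27, adjusted p = 1.0) and complement factor CFB by 0.30 (SE 0.14, adjusted p = 1.0). MX2, an interferon-induced antiviral GTPase, had the lowest adjusted p of all the list genes with the mimic, at -0.55 (SE 0.14, adjusted p = 0.687), and averaged 7.94 ± 0.07 (SD, n = 3) with the control and 7.39 ± 0.17 with the mimic. ACKR3 differed by -0.61 (SE 0.27, adjusted p = 1.0), and HDAC6, which binds FAT10, by 0.32 (SE 0.14, adjusted p = 1.0).

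Between the controls the same 6 lists had medians of 0.08, 0.03, 0.13, 0.02, 0.04 and -0.08 against 0.0013 for all probe sets. The genes past an unadjusted p of 0.05 were TLR8, a sensor of single-stranded RNA, at 0.63 (SE 0.18, adjusted p = 0.788), the adhesion molecule VCAM1 at 0.41 (SE 0.15, adjusted p = 0.902), the iron-binding acute phase protein LCN2 at 0.44 (SE 0.17, adjusted p = 0.927) and the decoy receptor ACKR2 at -0.47 (SE 0.15, adjusted p = 0.865). TLR8 was dim, at 2.43 with the inhibitor control and 3.06 with the mimic control, and its difference was 0.34 without occasion 3. VCAM1, at 4.55 and 4.96 in the same order, also lay under the median of 5.03 for all probe sets. ACKR2 lay near or under that median, at 5.03 and 4.56. With the inhibitor the medians were -0.03, -0.09, 0.08, 0.07, 0.04 and 0.02, and no gene of these lists passed an unadjusted p of 0.05.

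Between occasions the adjusted threshold, which 4.97% of all probe sets passed, was passed by 2 of the 14 NF-kB targets, 3 of the 22 interferon-inducible genes and 1 of the 12 FAT10 partners. They were CSF1, a macrophage growth factor, which was 0.58 higher on occasion 3 than on occasion 1 (adjusted p = 0.0288), IER3, highest on occasion 2 (adjusted p = 0.0364), the interferon-inducible genes IFIT3 (-0.93, adjusted p = 0.0314), WARS (1.22, adjusted p = 0.00191) and SOCS1, also highest on occasion 2 (means 4.87, 5.27 and 4.58, adjusted p = 0.0269), and the FAT10-binding spindle checkpoint gene MAD2L1 (-1.08, adjusted p = 0.00165). WARS, a tRNA synthetase, and IFIT3, an antiviral protein, thus moved in opposite directions. The means of IFIT3 (5.39, 4.82 and 4.46) and of SOCS1 lay near or under the median of 5.03 for all probe sets. None of the 11 inflammatory receptors or 12 NF-kB regulators passed. WARS and MAD2L1 kept the call in all alternatives, and CSF1, IER3, IFIT3 and SOCS1 lost it when single arrays were left out. No alternative used the other probe sets of WARS or IER3.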

How the data were processed

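Total RNA of 12 HuH-7 cultures was hybridised to Affymetrix HuGene 2.0 ST arrays. The deposited log2 values, 1 for each probe set and array, were normalized by the authors with Affymetrix Expression Console (version and settings not given in the sources used here). They were used as they stand (array medians 4.99 to 5.15, SD 1.95 to 2.06), with all 53617 probe sets kept. The number of arrays limits the precision.

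Groups come from the labels. The tests used limma 3.58.1 (R 4.3.3) with 1 model of 4 groups over 12 arrays, Benjamini-Hochberg adjusted across every probe set, and a threshold of 0.05. Occasions were compared by limma's F test with group as a term. All tests are two-sided, and p-values measure the spread between these arrays. The group model was tried on simulated data for the inhibitor comparison only, without occasion effects, and the occasion test was not simulated.

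The members, gene lists and tests were chosen with earlier results of these data known. Named genes are the members, MIR1908 and FADS1, up to 4 genes a list with the lowest p in each comparison, and for each member the 5 genes with the highest r. The platform annotation names 14 of 15 CXC ligands, 21 of 24 CC and CX3C ligands, 18 of 21 chemokine receptors, 11 of 18 inflammatory receptors, 12 of 23 NF-kB regulators, 14 of 28 NF-kB targets, 22 of 39 interferon-inducible genes, 12 of 18 FAT10 partners, 13 of 18 hepatocyte markers and 14 of 24 other markers.

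The repeat number marks a shared occasion by the series' own design text. Deviations from group means correlated at a median r of 0.24 over 18 pairs of arrays with the same number and -0.141 over 36 pairs with different numbers, and 10 of 12 arrays were closest to one of the same number. With the repeat number as a block, calls rose from 8 to 24 with the mimic and from 2 to 11 between the controls and went from 1 to 0 with the inhibitor. Alternatives covered the block, the scaling, dim probe sets, the model, array weights and each array left out.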

Additional observations from a re-analysis of the deposited data

Results flagged for a closer look

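CCL20 lay lower with the mimic than with the mimic control on all 3 occasions and higher with the inhibitor than with the inhibitor control on all 3, so that the responses to the oligonucleotides pointed in opposite directions each time. The mean response to the mimic was 0.70 below the mean response to the inhibitor on the log2 scale (-0.70). The comparison with the mimic had served to select the members, and only the members were looked at in this way. The difference was not tested, the smallest of the 6 values was 0.0069 on the log2 scale, and the groups overlapped in both comparisons. The mean difference with the inhibitor changed sign, to -0.15 without inhibitor control replicate 3 and to -0.024 without inhibitor replicate 2.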

How the results depend on the processing

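UBD lies under the median signal of all probe sets. No other probe set of any member was named, so the alternative that would use one gave no value. The intervals are wide, and come from 3 arrays a group and a model without the occasion. With the mimic 8 probe sets passed the adjusted threshold (5 higher, 3 lower). This became 24 with the replicate block, 10 after quantile normalization again (5 higher, 5 lower), 4 with a common median (3 higher, 1 lower), 26 with dim probe sets left out, 14 with an intensity trend and 26 with array weights. With the inhibitor 1 passed, which became 0 with the replicate block (2418 at an unadjusted p under 0.05), 0 without dim probe sets (523) and 0 with an intensity trend (1484). Between the controls 2 passed, which became 11 with the replicate block, 0 after quantile normalization again (3022 unadjusted), 4 with a common median, 10 without dim probe sets, 5 with an intensity trend and 6 with array weights. Over only the 6 arrays compared, limma gave 0 in all 3 comparisons (1924, 1892 and 2703 unadjusted). A two-tailed t-test on each probe set also gave 0 in all 3 (2166, 1937 and 2629 unadjusted). The study analysed its arrays with the Affymetrix console programs, and that analysis was not rerun. Between occasions 2665 passed, which became 4507 without dim probe sets and 4326 with an intensity trend. Leaving out arrays gave 0 to 3 with the mimic, 0 to 2 with the inhibitor, 0 to 1 between the controls and 786 to 2116 between occasions. The cause of these changes was not tested.

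With the replicate block the adjusted p of the members with the inhibitor was 0.978, and it changed no call of a named gene. The mimic difference of CXCL5 was 1.15 without replicate 1. Leaving out arrays, the inhibitor difference of CCL20 ran from -0.15 (without inhibitor control replicate 3) to 0.40 and was -0.024 without inhibitor replicate 2, and that of UBD ran from -0.038 (without replicate 2) to 0.82. Between occasions 3 and 1, leaving out arrays took UBD from -0.70 to 0.12 (without mimic replicate 1) and IER3 from -0.19 to 0.030 (without inhibitor replicate 3), and IER3 was 0.036 after quantile normalization again. In these 2 tested comparisons CXCL5 and CXCL10 kept their direction in every alternative, and CCL20 did so between occasions.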
